A study of Mus musculus with 28 samples.

Results

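The 36 genes described here serve fatty acid oxidation in mitochondria and peroxisomes. They were chosen by name, with earlier results of these data known. The list holds enzymes of mitochondrial and peroxisomal beta-oxidation and the acyl-CoA thioesterases of the Acot family. It also holds the receptor Ppara with its cofactor Ppargc1a and some of its target genes. All 36 were found among the 56748 genes of the count table, and all 36 passed the filter on low counts that kept 17573 genes. They were measured by RNA-seq of poly(A) RNA in 28 libraries of whole mouse kidney. The mice carried 1 of 3 forms of Aqp3, the gene of the water and glycerol channel aquaporin-3. Q is a substitution that imitates an acetylated lysine, R is one that imitates the deacetylated lysine, and WT is the unaltered protein. The groups were male Q, male R and male WT with 5 libraries each, and female Q, female R and female WT with 5, 3 and 5 libraries. All animals were untreated, ate and drank freely under a cycle of 12 h light and 12 h dark, and were killed between 2 and 5 h after lights on (zeitgeber time). Age and strain are not given in the sources used here.

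Fatty acids are the main fuel of the proximal tubule, the kidney segment that reabsorbs most of the filtrate and holds most of the organ's mitochondria and peroxisomes. A long-chain fatty acid is first joined to coenzyme A, passed through the carnitine shuttle into the mitochondrion, and shortened there by repeated rounds of dehydrogenation, hydration, oxidation and thiolysis. Peroxisomes run a related cycle on very long and branched chains, and PPAR-alpha, a nuclear receptor that binds fatty acids, induces many enzymes of both cycles. Aquaporin-3 itself is known from the principal cells of the collecting duct.

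Library totals were 14825417 to 21403804 counts, and the 36 genes took 0.709 to 1.16% of them. Each gene had at least 13416 counts in all. Levels are given as CPM, the count of a gene scaled to the size of its library. Aqp3 averaged 111 to 124 CPM in the 6 groups, and a substitution in its coding sequence cannot be read from such a table. Some libraries stood apart. Male Q replicate 4 and female Q replicate 5 had 7.74 and 3.94% of their counts from mitochondrially encoded genes, and all further libraries had 9.56 to 12.1%. In the library labelled female WT replicate 2, Xist (the transcript coating the inactive X) stood at 0.515 CPM, where the remaining females had 214 to 435 and males 0.470 to 2.01 CPM. A sum over 4 Y-linked genes came to 0.468 CPM in it, 121 to 164 CPM in males and 0.782 to 1.47 CPM in the remaining females. Counts of calls are therefore also given without these libraries. The labels do not say whether libraries came from separate animals, and p-values measure the spread between these libraries.

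Male Q replicate 4 stood at the top or bottom of its group for 31 of the 36 genes, 13 times highest and 18 times lowest. In that library Acads (short-chain dehydrogenase) had 422 CPM and Acaa1a (peroxisomal thiolase) 273 CPM, above the 224 to 245 and 135 to 149 CPM of the other male Q libraries. Acsl1 had 113 CPM and Ehhadh 349 CPM there, below the 207 to 222 and 722 to 917 CPM of the others. Female Q replicate 5 was highest or lowest for 24 genes and female WT replicate 2 for 22. The other libraries in groups of 5 were so for 4 to 22 genes, with male R replicate 4 at 22 and male R replicate 3 at 21. Female R had 3 libraries, so each falls at an end more often. Its replicate 2 was highest for 27 genes and lowest for 6, while replicates 1 and 3 were highest for 5 and 4.

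**Figure D1:**
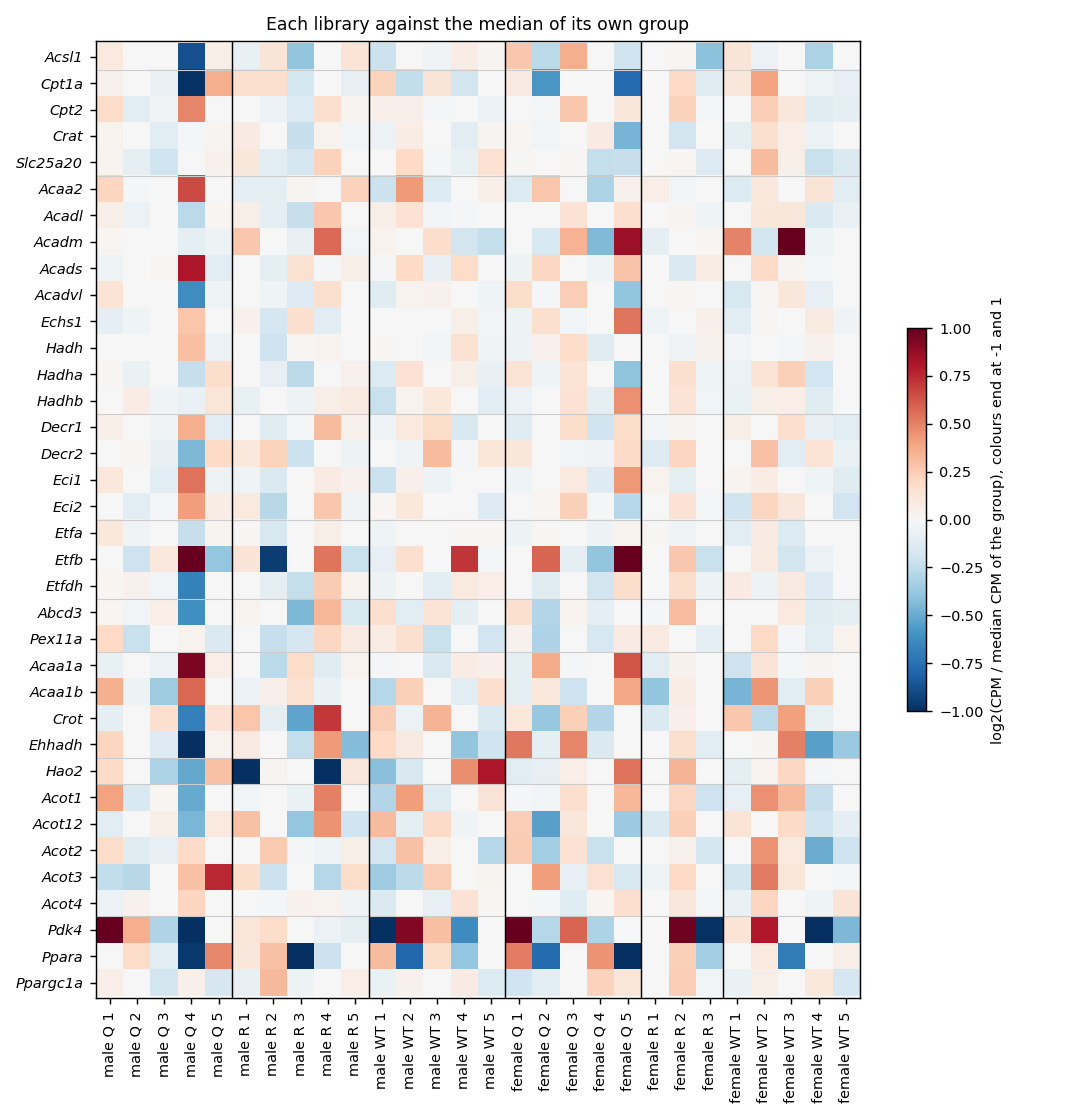
Each library against the median of its own group, as log2 of CPM over the group median, for the 36 genes (rows) and 28 libraries (columns, groups separated by black lines). Male Q replicate 4 is the highest or lowest library of its group for 31 genes, with Acads high and Acsl1 low.

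Levels of different genes were compared per kilobase of annotated exon, as the mean over the 28 libraries. Acadm, the medium-chain acyl-CoA dehydrogenase, stood highest at 327 CPM per kb, followed by Etfa at 280, Hao2 at 267 and Ehhadh at 237 CPM per kb. The lowest were Acot3 at 7.34, Ppara at 9.12 and Ppargc1a at 9.23 CPM per kb. Etfb, the partner subunit of Etfa in the electron transfer flavoprotein, was at 37.2 CPM per kb. In the GENCODE M21 annotation 58.2% of the exon bases of Etfb are shared with Gm45233 on the same strand, and 44.8% of its 50-base words occur in other genes. The part of this overlap in the level of Etfb was not tested. The same search found 50-base words of other genes in 30.5% of Acaa1b and 12.9% of Acaa1a, a pair of close copies, and in 27.7% of Acot2, 19.7% of Hadhb, 19.2% of Acot1 and 19.1% of Acot3. Gm49366 on the same strand and 4732463B04Rik on the opposite strand together cover 20.6% of the exon bases of Acot3 and 9.71% of those of Acot4. Dvl2 on the opposite strand covers 42.9% of the exon bases of Acadvl, and the counting used no strand option. Values of these genes are uncertain for that reason, by an amount that was not tested.

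Many of the 36 genes differed between male and female kidneys, in both directions. In whole tissue fewer cells of a type and less RNA per cell cannot be told apart. In male against female kidneys edgeR called 20 of 36 genes in Q, 15 in R and 15 in WT, or 55.6, 41.7 and 41.7% of them, against a background of 23.1, 14.1 and 16.5% of all genes tested. In Q 12 genes were higher and 8 lower in males, in R 9 and 6, and in WT 10 and 5. Of all genes, 11.9% were higher and 11.2% lower in Q, 7.07 and 7.01% in R, and 8.22 and 8.31% in WT. The 36 had at least 13416 counts each, and the genes tested include rarer ones. Here and below the background is therefore not matched in level. The direction was mixed: the median log2 fold change of the 36 was 0.13 in Q, 0.10 in R and 0.03 in WT, beside -0.02, -0.03 and -0.03 for all genes, while the median absolute change was 0.37, 0.36 and 0.30, beside 0.26, 0.26 and 0.22. Averaged over the genotypes 25 genes were called, 13 higher and 12 lower in males, where 40.2% of all genes were called, 18.9% higher and 21.3% lower.

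The 3 comparisons share no library, but they come from 1 fit in which all 6 groups share 1 estimate of the spread. Their calls are therefore not independent. 12 genes, or 33.3% of the 36, were called in all 3 with the same sign, against 9.27% of all genes tested. Acadl, Acads, Acot12, Cpt2, Crot, Eci2, Etfa and Hadh were higher in males, and Acot3, Acsl1, Hadha and Hao2 lower. A further 3 genes (8.33%) were called in 2 genotypes, 8 (22.2%) in 1 and 13 (36.1%) in none, against 6.45, 13.01 and 71.3% of all genes. The sign was the same in all 3 for 33 genes (91.7%), against 65.4% of all genes. In 7 genes every male library lay above every female one (Acadl, Acads, Acot12, Cpt2, Crot, Eci2 and Hadh), which held for 3.2% of all genes, and in 3 every male library lay below (Acot3, Acsl1 and Hao2), which held for 1.94%. Without male Q replicate 4 and female Q replicate 5 the calls were 21 in Q, 20 in R and 21 in WT. Of all genes 4295, 4171 and 4342 were then called, beside 4060, 2474 and 2906 with every library. The R and WT comparisons hold neither of these libraries and depend on them through the single fit. Without these and female WT replicate 2 the calls among the 36 were 21, 21 and 19, and those among all genes 4353, 4192 and 3607, or 25, 24.1 and 20.8% of those tested.

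**Figure D2:**
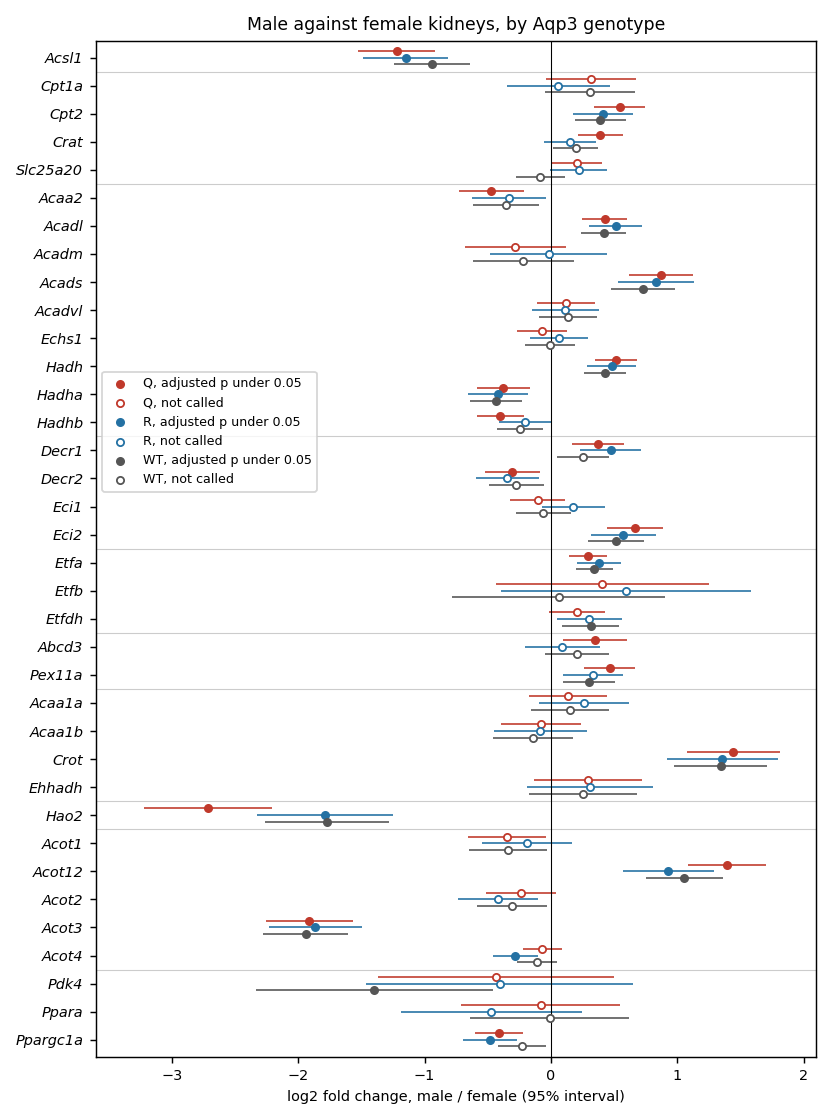
Log2 fold change of males over females with its 95% interval for each gene, in Q, R and WT kidneys, grouped by role from acyl-CoA activation at the top to the regulators at the bottom. Filled points have an edgeR adjusted p under 0.05. Hao2, Acot3 and Acsl1 lie to the left of 0 and Crot, Acot12 and Acads to the right in all 3 genotypes.

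Promoter windows of the 3 genes with the largest sex differences, Hao2, Acot3 and Crot, and of Acot4, the upstream neighbour of Acot3, are shown for comparison. Each runs from 250 bases before to 50 bases after the start site, from RefSeq on GRCm38.p6, with matches to AGGTCA in capitals, the 6-base half-site bound by nuclear receptors such as PPAR-alpha, on either strand.
Hao2, chr3:98893181-98893480, minus strand: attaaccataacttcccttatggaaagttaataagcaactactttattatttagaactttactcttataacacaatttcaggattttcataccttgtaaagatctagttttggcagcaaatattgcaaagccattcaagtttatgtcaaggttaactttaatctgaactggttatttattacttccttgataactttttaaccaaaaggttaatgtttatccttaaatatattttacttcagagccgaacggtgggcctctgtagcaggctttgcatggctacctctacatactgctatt
Acot3, chr12:84051894-84052193, plus strand: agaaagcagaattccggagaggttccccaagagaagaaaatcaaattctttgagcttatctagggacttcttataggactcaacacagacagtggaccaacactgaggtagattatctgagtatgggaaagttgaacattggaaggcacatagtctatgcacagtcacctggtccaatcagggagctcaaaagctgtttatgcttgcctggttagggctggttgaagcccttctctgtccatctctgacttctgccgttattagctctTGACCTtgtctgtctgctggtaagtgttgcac
Acot4, chr12:84038129-84038428, plus strand: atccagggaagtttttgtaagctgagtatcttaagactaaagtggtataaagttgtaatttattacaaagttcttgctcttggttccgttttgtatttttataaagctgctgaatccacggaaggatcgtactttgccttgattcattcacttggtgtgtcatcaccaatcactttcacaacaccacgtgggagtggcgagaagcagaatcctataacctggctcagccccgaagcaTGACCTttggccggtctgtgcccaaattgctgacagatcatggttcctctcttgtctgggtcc
Crot, chr5:8997097-8997396, minus strand: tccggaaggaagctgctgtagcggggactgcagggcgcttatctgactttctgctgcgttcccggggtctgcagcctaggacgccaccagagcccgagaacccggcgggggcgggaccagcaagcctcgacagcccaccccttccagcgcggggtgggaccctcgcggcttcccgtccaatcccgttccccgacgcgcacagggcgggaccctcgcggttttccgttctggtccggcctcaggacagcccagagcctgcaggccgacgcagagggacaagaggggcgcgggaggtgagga
RefSeq windows were matched by symbol for 33 of the 36 genes (36 windows). Acot3 and Acot4 hold 1 half-site each, and Hao2 and Crot none. The half-site occurred in 8 of 36 windows (22.2%, in Acadm, Acadvl, Acot12, Acot3, Acot4, Cpt1a and Echs1), against 16.3% of all 32851 windows. The full PPAR element of 2 half-sites spaced by 1 base, AGGTCANAGGTCA, occurred in 0 of the 36 and in 0.0396% of all windows. With the T of each half-site left free, this element occurred in 0 and 0.381%. The palindrome TTCNNNGAA, bound by STAT5, occurred in 8.33% of the 36 (Cpt2, Hadha and Hadhb) and 8.3% of all windows. The half-site AGAACA of steroid receptors such as the androgen receptor occurred in 8.33% (Acot1, Acot12 and Hadh) and 19% of all windows. A match is a description of letters in a 300-base window and not a bound site.

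Of the genes of activation and the carnitine shuttle, 1 was lower and 1 higher in males in every genotype. Acsl1, which joins long-chain fatty acids to coenzyme A, was lower in males, and Cpt2, which releases acyl-CoA from carnitine inside the mitochondrion, was higher. Acsl1 had 222, 207, 208, 113 and 216 CPM in male Q libraries, 218, 251, 175, 230 and 253 CPM in male R libraries and 207, 239.9, 234, 252 and 244 CPM in male WT libraries. It had 523, 359.7, 558, 435 and 378 CPM in female Q libraries, 542, 549.7 and 409 CPM in female R libraries and 509, 447, 464, 373 and 464 CPM in female WT libraries. No male library reached the lowest female one, and the log2 fold change was -1.22 in Q (SE 0.149, edgeR adjusted p = 1.90e-07), -1.15 in R (SE 0.166, adjusted p = 6.65e-06) and -0.94 in WT (SE 0.148, adjusted p = 2.05e-05). Cpt2 had 178, 146, 153, 220.2 and 157 CPM in male Q libraries, 161, 154, 146, 179.5 and 164 CPM in male R libraries and 159, 159, 153, 154 and 147 CPM in male WT libraries. It had 111, 109, 134, 111 and 120.5 CPM in female Q libraries, 115, 134 and 114 CPM in female R libraries and 115, 136, 124, 106 and 108 CPM in female WT libraries. All 15 males again stood above the 13 females, although by less, with log2 fold changes of 0.55 (SE 0.0986), 0.41 (SE 0.115) and 0.39 (SE 0.0985) in Q, R and WT, and edgeR adjusted p-values of 0.000102, 0.0141 and 0.00549. The R call ended without female R replicate 1 or replicate 3 (edgeR adjusted p = 0.0832 and 0.0715). Crat, carnitine acetyltransferase, was higher in male Q (0.39, edgeR adjusted p = 0.00129) and was not called in R (0.15) or WT (0.20). Cpt1a, the regulated entry step of the shuttle, had log2 fold changes of 0.32, 0.06 and 0.31 in Q, R and WT, none called, and Slc25a20, the carnitine-acylcarnitine carrier, had 0.21, 0.22 and -0.08.

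Of the 9 genes of the mitochondrial cycle, 3 were higher in males in every genotype and 1 was lower in every genotype. Acads, the short-chain acyl-CoA dehydrogenase, showed the widest gap. It had 234, 241, 245, 422 and 224 CPM in male Q libraries, 245, 229, 272, 244 and 256 CPM in male R libraries and 227, 263, 217, 260.2 and 229 CPM in male WT libraries. It had 136, 163, 141, 137 and 171 CPM in female Q libraries, 142, 129 and 149 CPM in female R libraries and 139.7, 161, 143, 139 and 140.4 CPM in female WT libraries. The lowest male exceeded the highest female, and the log2 fold change was 0.87 in Q (SE 0.124, edgeR adjusted p = 3.02e-06), 0.83 in R (SE 0.146, adjusted p = 0.000134) and 0.73 in WT (SE 0.124, adjusted p = 6.55e-05). Hadh, which oxidises short-chain hydroxyacyl-CoA, had 698, 694, 694, 854 and 664 CPM in male Q libraries, 729, 631, 736, 747 and 729.7 CPM in male R libraries and 689.5, 685, 672, 763 and 669.9 CPM in male WT libraries. It had 481, 513, 568, 459 and 499 CPM in female Q libraries, 512, 499 and 527 CPM in female R libraries and 506, 516, 509, 532 and 517 CPM in female WT libraries. Acadl, the long-chain dehydrogenase, had 393, 363, 378, 313 and 383 CPM in male Q libraries, 404, 364, 329.6, 467 and 388 CPM in male R libraries and 371, 394, 350.1, 352 and 356 CPM in male WT libraries. It had 260.3, 261, 289, 260.5 and 293 CPM in female Q libraries, 275, 279.8 and 267 CPM in female R libraries and 272, 294, 294, 246 and 259.8 CPM in female WT libraries. In both genes the sexes did not overlap, with log2 fold changes of 0.52, 0.48 and 0.43 for Hadh and 0.42, 0.51 and 0.42 for Acadl in Q, R and WT, and edgeR adjusted p-values of 1.45e-05, 0.000561 and 0.000245 for Hadh and 0.000513, 0.000653 and 0.000887 for Acadl.

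Hadha and Hadhb encode the alpha and beta subunits of the trifunctional protein, which carries out the last steps of the cycle on long chains. Hadha had 241, 229, 239, 204 and 270.3 CPM in male Q libraries, 267, 253, 223, 269 and 275 CPM in male R libraries and 233, 284, 257, 267 and 244 CPM in male WT libraries. It had 343, 302, 343, 312 and 236 CPM in female Q libraries, 335, 374 and 325 CPM in female R libraries and 326, 373, 402, 298 and 339.8 CPM in female WT libraries. The sexes were apart in R and WT and overlapped in Q, where female Q replicate 5 had 236 CPM. The log2 fold change was -0.38 in Q, -0.42 in R and -0.44 in WT (edgeR adjusted p = 0.00653, 0.0118 and 0.00252), and the R call ended without female R replicate 2 (adjusted p = 0.095). Hadhb was called in Q, where males had 189.6, 199, 185, 181 and 206 CPM and females 227, 236, 260, 222 and 323 CPM without overlap. The log2 fold change there was -0.40, with an SE of 0.0901 and an edgeR adjusted p of 0.00131. It was -0.20 in R and -0.24 in WT, neither called. Acaa2, the thiolase that ends each mitochondrial round, was lower in male Q at 266, 228, 229.6, 363 and 229 CPM, against 334, 445, 368, 295 and 380.1 CPM in female Q. The range of male Q reached into that of female Q through replicate 4, and the log2 fold change was -0.47 (SE 0.127, edgeR adjusted p = 0.00651), with -0.33 and -0.36 in R and WT, neither called. Acadm (-0.28, -0.02 and -0.22 in Q, R and WT), Acadvl, the very-long-chain dehydrogenase (0.12, 0.11 and 0.14), and Echs1, the short-chain enoyl-CoA hydratase (-0.07, 0.06 and -0.01), were called in none.

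Double bonds need auxiliary enzymes, of which Eci1 and Eci2 are isomerases and Decr1 and Decr2 reductases, with Decr2 in the peroxisome. Eci2 had 126, 117, 125, 168 and 133 CPM in male Q libraries, 142, 110, 133, 160.5 and 129.9 CPM in male R libraries and 131, 139.5, 129, 129.8 and 118 CPM in male WT libraries. It had 84.4, 85.5, 99.6, 83.7 and 69.2 CPM in female Q libraries, 88.0, 97.2 and 87.4 CPM in female R libraries and 79.5, 106, 98.6, 91.2 and 79.8 CPM in female WT libraries. Every male stood above every female, with log2 fold changes of 0.66, 0.57 and 0.51 in Q, R and WT (edgeR adjusted p = 2.56e-05, 0.00188 and 0.000967). Decr1 was higher in males in Q (0.37, edgeR adjusted p = 0.00658) and R (0.47, adjusted p = 0.00526) and was not called in WT (0.26, adjusted p = 0.079). Decr2 was lower in male Q (-0.31, edgeR adjusted p = 0.036), a call that ended without male Q replicate 3 or 4 or without female Q replicate 1 or 5 (adjusted p = 0.0648, 0.102, 0.0764 and 0.0884), and it was -0.18 without both libraries of low mitochondrial share. It was not called in R (-0.35) or WT (-0.27). Eci1 was called in none (-0.11, 0.18 and -0.06 in Q, R and WT).

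The electrons of the first step pass through the electron transfer flavoprotein, made of Etfa and Etfb, to the oxidoreductase Etfdh. Etfa was higher in males in all 3 genotypes, with 478 to 603 CPM in male Q and 438 to 466 CPM in female Q, 527 to 613 CPM in male R and 438 to 453 CPM in female R, and 555 to 577 CPM in male WT and 419 to 485 CPM in female WT. Its log2 fold changes were 0.29, 0.38 and 0.34 (edgeR adjusted p = 0.00391, 0.00219 and 0.00107), and the Q call ended when no filter on low counts was used (adjusted p = 0.0756). Etfdh was called in WT (0.31, edgeR adjusted p = 0.0473) but not without any 1 of the male or female WT replicates 1, 2, 4 and 5 (adjusted p = 0.0509 to 0.107), and it was 0.21 in Q and 0.30 in R. Etfb was called in none, with 25.04 to 152 CPM in male Q and 23.4 to 77.7 CPM in female Q, where male Q replicate 4 and female Q replicate 5 were the highest.

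Peroxisomal genes held the largest differences in both directions. Crot, the carnitine octanoyltransferase that hands shortened chains on to mitochondria, was 2.72-fold higher in male than in female Q, 2.56-fold in R and 2.54-fold in WT. It had 595, 632, 711, 393 and 698 CPM in male Q libraries, 663, 512, 379.7, 892 and 547 CPM in male R libraries and 656, 534, 703, 554 and 503 CPM in male WT libraries. It had 247, 177, 271, 187 and 230 CPM in female Q libraries, 216, 248 and 239 CPM in female R libraries and 264, 181, 291, 208 and 219 CPM in female WT libraries. The ranges were far apart in every genotype, with log2 fold changes of 1.44 (SE 0.181), 1.35 (SE 0.216) and 1.34 (SE 0.1801) and edgeR adjusted p-values of 3.77e-07, 3.42e-05 and 1.87e-06. Ehhadh, the peroxisomal bifunctional enzyme, was 0.29, 0.31 and 0.26 in Q, R and WT and was not called, nor were the thiolases Acaa1a (0.13, 0.26 and 0.15) and Acaa1b (-0.08, -0.08 and -0.14). Of the membrane genes, Pex11a, which promotes peroxisome division, was higher in male Q (0.46, edgeR adjusted p = 0.000838) and male WT (0.30, adjusted p = 0.0357). Its WT call ended without any 1 of male WT replicates 1, 2 and 4 or female WT replicates 1, 3, 4 and 5 (adjusted p = 0.0555 to 0.107), and it was 0.33 in R. Abcd3, an importer of acyl-CoA, was higher in male Q (0.35, edgeR adjusted p = 0.0389) but not without any 1 of male Q replicates 1, 2, 3 and 5 or female Q replicates 2 and 4 (adjusted p = 0.0716 to 0.106), and it was 0.09 and 0.21 in R and WT.

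Hao2, a peroxisomal oxidase of long-chain 2-hydroxy acids, was 6.55-fold lower in male than in female Q, 3.46-fold lower in R and 3.41-fold lower in WT. It had 164, 143, 115, 100.7 and 176 CPM in male Q libraries, 161, 346, 339.6, 145 and 367 CPM in male R libraries and 173, 206, 231, 318 and 403 CPM in male WT libraries. It had 787, 804, 893, 852 and 1242 CPM in female Q libraries, 862, 1094 and 866 CPM in female R libraries and 832, 911, 1027, 876 and 889.8 CPM in female WT libraries. The highest male, at 403 CPM, lay below the lowest female, at 787 CPM, and the log2 fold change was -2.71 in Q (95% interval -3.22 to -2.20, edgeR adjusted p = 2.15e-09), -1.79 in R (-2.33 to -1.25, adjusted p = 1.44e-05) and -1.77 in WT (-2.26 to -1.28, adjusted p = 3.14e-06). The lowest value of all libraries, 100.7 CPM, was that of male Q replicate 4, and the highest, 1242 CPM, that of female Q replicate 5. Both libraries stood apart by their mitochondrial share. Whether the gap differed between Q and WT was tested as an interaction, given with the genotypes.

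**Figure D3:**
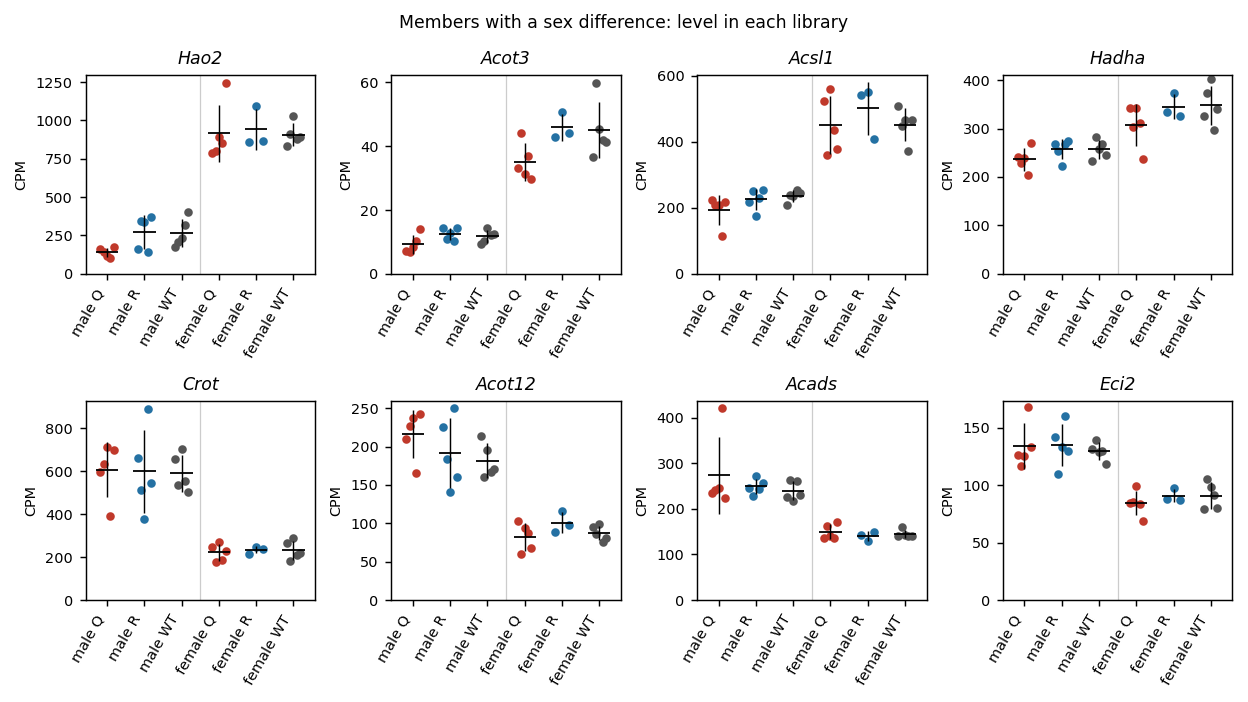
CPM of 8 genes in each library, with the group mean (bar) and SD (line), for male Q, R and WT on the left and female Q, R and WT on the right of each panel. Hao2, Acot3 and Acsl1 are lower in all 15 male libraries and Crot, Acot12, Acads and Eci2 higher, while the ranges of Hadha overlap.

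The thioesterases, which split acyl-CoA back into fatty acid and coenzyme A, went both ways. Acot12, a cytosolic acetyl-CoA hydrolase, was higher in males. It had 210, 227, 237, 165 and 243 CPM in male Q libraries, 225, 184, 140.3, 250 and 160.1 CPM in male R libraries and 214, 159.9, 196, 167 and 171 CPM in male WT libraries. It had 103, 59.7, 94.1, 87.0 and 67.7 CPM in female Q libraries, 88.6, 116 and 98.0 CPM in female R libraries and 95.1, 86.4, 98.8, 75.4 and 81.4 CPM in female WT libraries. No female reached the lowest male, and the log2 fold change was 1.39 in Q (SE 0.150), 0.93 in R (SE 0.176) and 1.05 in WT (SE 0.149), with edgeR adjusted p-values of 1.82e-08, 0.000316 and 3.71e-06. Acot3, a peroxisomal long-chain thioesterase, was lower in males. It had 7.01, 6.88, 8.34, 10.2 and 14.04 CPM in male Q libraries, 14.4, 10.98, 12.7, 10.4 and 14.5 CPM in male R libraries and 9.50, 10.2, 14.4, 12.2 and 12.4 CPM in male WT libraries. It had 33.1, 44.2, 31.2, 36.9 and 29.6 CPM in female Q libraries, 42.9, 50.8 and 44.2 CPM in female R libraries and 36.7, 59.8, 45.5, 41.8 and 41.4 CPM in female WT libraries. The highest male, at 14.5 CPM, was under the lowest female, at 29.6 CPM, and log2 fold changes were -1.91 (95% interval -2.25 to -1.57), -1.87 (-2.23 to -1.50) and -1.94 (-2.28 to -1.60) in Q, R and WT, with edgeR adjusted p-values of 2.89e-10, 4.50e-09 and 2.20e-10.

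Acot2, Acot1, Acot4 and Acot3 lie in this order on the plus strand of chromosome 12, from 83987861 to 84060402 in GRCm38. Averaged over genotypes, their log2 fold changes of males over females were -0.32, -0.29, -0.15 and -1.91, all 4 called (edgeR adjusted p = 0.00221, 0.0109, 0.00803 and 3.90e-16). The 95% interval of Acot3, -2.11 to -1.70, did not meet those of Acot2 (-0.49 to -0.15), Acot1 (-0.48 to -0.11) or Acot4 (-0.25 to -0.06). Acot2 is the mitochondrial and Acot1 the cytosolic long-chain enzyme, and Acot4 acts on succinyl-CoA in mouse peroxisomes. Within single genotypes Acot4 was called in R, with 79.0, 78.2, 81.2, 81.0 and 76.9 CPM in males and 94.0, 102 and 93.5 CPM in females, which did not overlap (-0.28, edgeR adjusted p = 0.0256). That call ended without any 1 of the 3 female R libraries or male R replicate 4 or 5 (edgeR adjusted p = 0.0506 to 0.145). The averaged call of Acot1 ended without the 3 libraries that stood apart (-0.20, edgeR adjusted p = 0.066).

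Among the regulators, Pdk4, the kinase that shuts off pyruvate dehydrogenase, had the largest estimate in WT. It had 68.1, 40.4, 25.5, 14.5 and 31.4 CPM in male Q libraries, 46.9, 49.0, 43.2, 41.4 and 40.3 CPM in male R libraries and 16.3, 66.2, 42.9, 22.5 and 34.8 CPM in male WT libraries. It had 85.7, 31.2, 57.2, 30.8 and 38.1 CPM in female Q libraries, 50.8, 99.7 and 25.6 CPM in female R libraries and 108, 171, 98.1, 32.7 and 71.7 CPM in female WT libraries. Ranges of the sexes overlapped in every genotype, and the call in WT (-1.40, SE 0.454, edgeR adjusted p = 0.0359) ended without female WT replicate 2, where the log2 fold change was -1.08 (adjusted p = 0.132). It also ended without any 1 of male WT replicates 1, 3, 4 and 5 or female WT replicates 1 and 3 (edgeR adjusted p = 0.0521 to 0.0954). In Q and R it was -0.43 and -0.41, not called. Ppargc1a, the coactivator that promotes mitochondrial genes, was lower in male Q, with 58.1, 55.4, 48.8, 57.4 and 49.2 CPM against 61.6, 65.5, 70.5, 82.8 and 76.7 CPM in female Q, and in male R, with 47.6, 62.9, 48.4, 50.2 and 52.5 CPM against 69.2, 81.9 and 68.0 CPM in female R. The sexes did not overlap in either genotype, with log2 fold changes of -0.41 and -0.48 (edgeR adjusted p = 0.00128 and 0.00161), and in WT it was -0.23 (adjusted p = 0.0848). The receptor Ppara had 16.7 to 45.5 CPM in males and 13.7 to 54.4 CPM in females and was called in none (-0.08, -0.47 and -0.01 in Q, R and WT).

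Other genes of the same pathways, averaged over genotypes, are given as counts of edgeR calls beside the 40.2% of all genes. Of 41 tested other peroxisome genes, 22 were higher and 3 lower in males, with a median log2 fold change of 0.19. Hao1, an oxidase of short 2-hydroxy acids, was at 0 in the 3 male groups and female R and was not tested. Among the leading ones were Amacr, the racemase of branched chains, at 344 to 593 CPM in males against 96.5 to 136 in females (2.0, edgeR adjusted p = 1.59e-19), and Acox3, the branched-chain oxidase, at 176 to 269 CPM in males against 69.0 to 108 CPM in females (1.41, edgeR adjusted p = 1.68e-16). Of 21 other genes of mitochondrial oxidation and uptake, 7 were higher and 5 lower, with a median of -0.03. Acat1, the mitochondrial acetoacetyl-CoA thiolase, and Cd36, which takes up fatty acids, were higher in males (0.97 and 1.87), and Slc27a1, another fatty acid transporter, was lower (-0.74).

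Among 11 other tested PPAR-alpha targets 2 were higher and 5 lower in males, with a median of -0.44. Cyp4a14, a fatty acid hydroxylase, had 27.8 to 235 CPM in males against 327 to 668 CPM in females (-2.72, edgeR adjusted p = 3.73e-07). Fabp1, a fatty acid binding protein, was near its lower limit at 0 to 1.42 against 2.64 to 6.06 CPM (-2.67), and Mgll, which splits monoglycerides, was lower (-0.71). The list of 4 ketone body genes includes Acss1, the mitochondrial acetyl-CoA synthetase, which uses acetate rather than ketone bodies. On this list 1 gene was higher and 2 were lower, Acss1 (-0.77) and Bdh1, hydroxybutyrate dehydrogenase (-0.30). Of 17 partners and regulators 6 were higher and 1 lower, and the leading ones were Rxra, the receptor that pairs with PPAR-alpha (0.45), Klf15 (0.48) and Hnf4a (0.36), both transcription factors. Hnf4a is also on the list of proximal tubule markers.

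Markers of kidney cell types are given as edgeR calls in males against females, averaged over genotypes. Of all genes 40.2% were called there, 18.9% higher and 21.3% lower in males. Of 14 proximal tubule markers 4 were higher and 5 lower in males, and their summed level was 23620 to 27750 CPM in males against 18720 to 25220 CPM in females. Of 6 markers of its straight segment 2 were higher and 3 lower, at 2274 to 3689 against 2134 to 2884 CPM.
Of the markers of other cell types, those called lower in males were 5 of 6 for the thick ascending limb, with 1 higher (3400 to 6087 CPM in males against 6039 to 8291 in females), 3 of 4 for the distal convoluted tubule (1003 to 1602 against 1160 to 2061) and 3 of 6 for principal cells (566 to 935 against 632 to 1101). The same held for 7 of 7 for intercalated cells (253 to 366 against 329 to 551), 5 of 5 for podocytes (201 to 308 against 269 to 379) and 5 of 5 for fibroblasts and pericytes (129 to 162 against 137 to 205). The male and female ranges overlapped in each of these lists. Lower calls numbered 2 of 6 for leukocytes (33.8 to 61.6 against 39.7 to 84.7 CPM), 2 of 6 for muscle (46.5 to 81.8 against 59.0 to 88.5), 1 of 6 for endothelium (252 to 321 against 255 to 347), 1 of 6 for urothelium (10.04 to 31.9 against 11.4 to 36.8) and 0 of 9 for adipocytes (52.2 to 266.5 against 64.3 to 301), with none higher. Among the markers, 1 gene, Lep of the adipocyte list, was at 0 in the 3 female R libraries. The part of these cell types in the differences of the 36 genes was not tested.

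Between Aqp3 genotypes no gene of the 36 was called. For male Q against male WT edgeR called 0 of 36 and 0% of all genes, as it did for each of the other comparisons of Q, R and WT within a sex, averaged over the sexes, or as an interaction with sex. By an unadjusted p under 0.05, male Q against WT had 1 of the 36 and 897 of 17573 genes, male R against WT 1 and 375, and male Q against R 3 and 721. In females the numbers were 3 and 516 for Q against WT, 1 and 338 for R against WT, and 2 and 532 for Q against R. DESeq2 called none of the 36 either, while over all genes it called 3 in male Q against WT, 1 in male Q against R, 1 in female Q against WT and 0 in the other comparisons within a sex. Limma's voom with sample weights called 2 of all genes in male Q against R, and none of the 36. Comparisons within a sex share libraries and are not independent.

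In males the largest estimates in Q belonged to Hao2. Male Q had 164, 143, 115, 100.7 and 176 CPM, male R 161, 346, 339.6, 145 and 367 CPM and male WT 173, 206, 231, 318 and 403 CPM. The mean was 139.7 ± 31.6 CPM in Q, 272 ± 109 in R and 266 ± 93.6 in WT (SD, n = 5 each), and the ranges overlapped between Q and both others. The log2 fold change was -0.93 against WT (95% interval -1.41 to -0.45, unadjusted p = 0.000495, edgeR adjusted p = 0.795) and -0.96 against R (-1.44 to -0.48, unadjusted p = 0.000351, adjusted p = 0.806). Over 17 alternatives the estimate against WT ran between -1.05 and -0.73, and the adjusted p between 0.152 and 1. Male R against WT was 0.03 (-0.45 to 0.51). Female WT averaged 907 ± 73.1 CPM (SD, n = 5).

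Acot3 had the next smallest p in male Q, with 7.01, 6.88, 8.34, 10.2 and 14.04 CPM in Q, 14.4, 10.98, 12.7, 10.4 and 14.5 in R and 9.50, 10.2, 14.4, 12.2 and 12.4 in WT, in overlapping ranges. Its log2 fold change was -0.33 against WT (95% interval -0.68 to 0.01, edgeR adjusted p = 0.917) and -0.44 against R (-0.78 to -0.09, adjusted p = 1). In male R against WT the smallest p belonged to Eci1, with 139, 129, 142, 151 and 147 CPM in R and 106.6, 129, 120, 124 and 124 CPM in WT, ranges that met at their ends (0.23, 0.01 to 0.45, edgeR adjusted p = 1), and to Decr1 (0.18, -0.02 to 0.38, adjusted p = 1). Estimates were positive for 31 of the 36 genes in male R against WT, with a median log2 fold change of 0.05, beside 49.3% of all genes and a median near 0. The 36 genes were measured in the same libraries and are not independent. In male Q against WT 17 were positive and 19 negative, beside 51.2% positive among all genes. Etfb had the highest estimate there (0.51), which became -0.34 without male Q replicate 4.

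In females Acot3 and Slc25a20 had the smallest p in Q against WT. Acot3 had 33.1, 44.2, 31.2, 36.9 and 29.6 CPM in female Q and 36.7, 59.8, 45.5, 41.8 and 41.4 CPM in female WT, with overlap (-0.36, 95% interval -0.68 to -0.04, edgeR adjusted p = 1), and the estimate was -0.18 without the 3 libraries that stood apart. Slc25a20 had 70.4, 69.8, 70.6, 59.3 and 59.6 CPM in female Q and 76.2, 94.8, 79.2, 65.3 and 69.0 CPM in female WT, also with overlap (-0.22, -0.42 to -0.03, edgeR adjusted p = 1), and -0.10 without those libraries. In R against WT they were Acot4 (0.19, 0.02 to 0.37) and Ppargc1a (0.18, -0.03 to 0.40), and in Q against R Acot4 (-0.19, -0.37 to -0.01) and Acot3 (-0.39, -0.76 to -0.03), with edgeR adjusted p-values of 1 for R against WT and 0.998 for Q against R. Pdk4 had the largest estimate in female Q against WT (-0.98, -1.91 to -0.06, unadjusted p = 0.0383, edgeR adjusted p = 1). Its highest value, 171 CPM, was that of female WT replicate 2. The estimate was -0.67 without that library and -0.59 without the 3 libraries that stood apart.

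**Figure D4:**
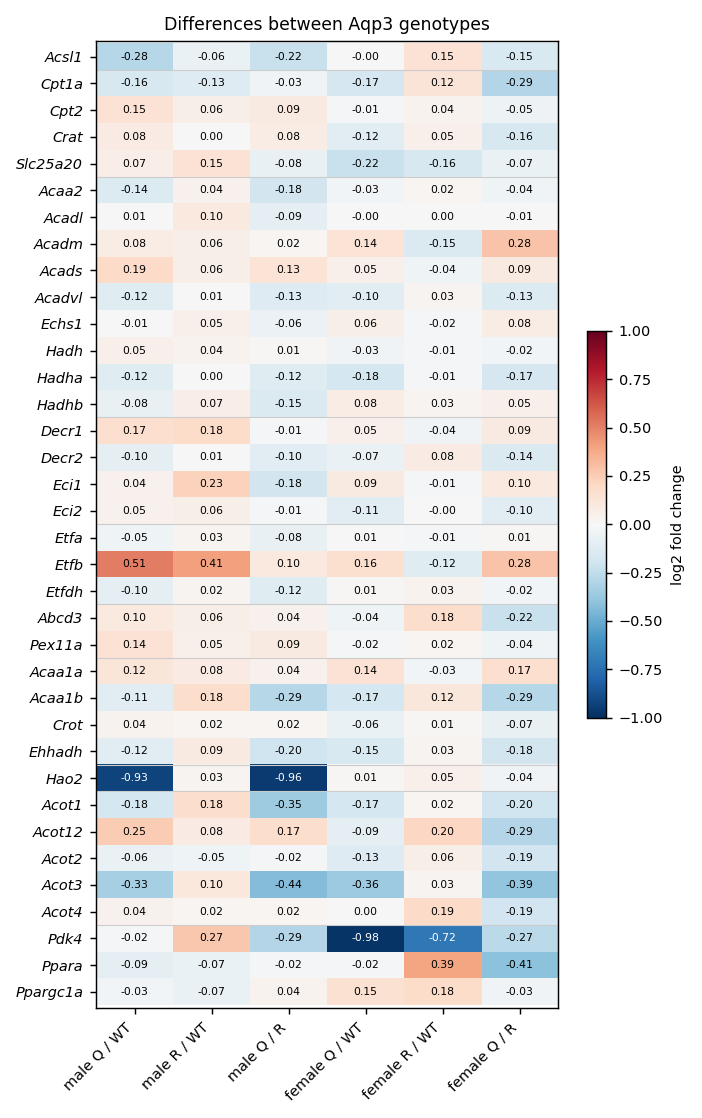
Log2 fold changes between Aqp3 genotypes within males and within females (columns) for the 36 genes (rows), with the value in each cell. None was called. Hao2 in male Q stands at -0.93 against WT and -0.96 against R, and Pdk4 in female Q at -0.98 against WT.

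Averaged over both sexes, Acot3 and Hao2 had the smallest p in Q against WT (-0.35 and -0.46, edgeR adjusted p = 0.92 for both) and in Q against R (-0.41 and -0.50, adjusted p = 0.986). Acot4 and Eci1 had them in R against WT (0.11 and 0.11, edgeR adjusted p = 1). Unadjusted, 3, 4 and 0 of the 36 were under 0.05 in these 3 comparisons, against 829, 691 and 235 of all genes, of which DESeq2 called 1, 0 and 0. Estimates were negative for 27 and positive for 9 of 36 genes in Q against R, beside 51.3% positive among all genes. The median was -0.07, beside 0.00 for all genes. R against WT, which shares the R libraries, had 31 of 36 positive, beside 49.4% of all genes. Genes measured in the same libraries are not independent.

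Whether the effect of a genotype differed between the sexes was tested as an interaction, the male difference from WT minus the female one. For Q it was -0.94 for Hao2 (95% interval -1.62 to -0.27, unadjusted p = 0.00801, edgeR adjusted p = 0.999), whose estimate in females was 0.01 (-0.46 to 0.49), and -0.72 without male Q replicate 4 and female Q replicate 5. It was 0.29 for Slc25a20 (edgeR adjusted p = 0.999). For R the smallest p belonged to Slc25a20 (0.30) and Ppargc1a (-0.25), with an edgeR adjusted p of 0.992 for both. Of the 36 genes 2 and 1 had an unadjusted p under 0.05 for Q and R, and of all genes 547 and 495. Neither DESeq2 nor edgeR called a gene in either interaction.

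The other pathway lists had 0 calls in every genotype comparison. The other PPAR-alpha targets had a summed level of 764 to 1306 CPM in male Q, 908 to 1656 CPM in male R and 845 to 1554 CPM in male WT. In male Q against R 0 of their 11 tested genes had a positive estimate, with a median log2 fold change of -0.49. Of all genes 53.8% were positive there, with a median of 0.01, and genes measured in the same libraries are not independent. The smallest p belonged to Vnn1, a pantetheinase, at 99.8 ± 24.2 CPM in Q and 132 ± 22.1 CPM in R (SD, n = 5 each; -0.40, edgeR adjusted p = 1). Against WT 3 of 11 were positive in male Q (median -0.22) and 10 of 11 in male R (0.18), beside 51.2 and 49.3% of all genes. Of the adipocyte markers 0 of 9 were positive in male Q against R (median -1.87), with a summed level of 52.2 to 109.5 CPM in male Q, 56.1 to 266.5 CPM in male R and 54.5 to 156 CPM in male WT. Their part in the estimates of the 36 genes was not tested.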

How the data were processed

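Poly(A) RNA of mouse kidney was measured by RNA-seq in 28 libraries. The authors deposited 1 table of read counts per gene, made with featureCounts of Subread 2.0.1, with no strand option, per the file headers. Subread 2.0.1, Trim Galore 0.6.7, SAMtools 1.6, DESeq2 1.38.3, Ensembl release 107 and GRCm39 are named in the submitters' processing notes, and the aligner is not given in the sources used here. Reads on more than 1 gene are left out by that counter's defaults.

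The counts were used as deposited. A single fit of all 28 libraries in 6 groups was made with edgeR 4.0.16 (R 4.3.3): TMM scaling, filterByExpr, the quasi-likelihood test and Benjamini-Hochberg adjustment over 17573 genes, which held 99.91% of the counts. A call is an adjusted p under 0.05. CPM uses the TMM-scaled library sizes, and SE and 95% intervals come from the F statistic and residual degrees of freedom. The procedure was tested on simulated data. Alternatives were DESeq2 1.42.0, its size factors in edgeR, no filter, the replicate number as a block, limma 3.58.1 voom with sample weights, and leaving libraries out.

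All 36 genes are accounted for. Called genes are named, with every library given for up to 6 of the largest changes in each direction, and where none was called the 2 genes of smallest p. Of other lists up to 3 called genes are named. Some genes of those lists are not reported here. Acot1, Acsl1 in single libraries, Ehhadh in single libraries, Etfb, Pdk4 in female Q and Vnn1 were named after their values were seen. The members and lists were chosen with earlier results of these data known. Motifs, RefSeq promoters and overlaps were read on GRCm38, not the build counted on, and no coordinates were converted.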

Additional observations from a re-analysis of the deposited data

Results flagged for a closer look

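Each gene was examined in the groups of 5 for a library whose gap to its nearest neighbour was large against the group's range by Dixon's test. Of 180 groups 19 were flagged, 10.6%, where chance flags about 1 in 20, and genes measured in 1 library are not independent.

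Male Q replicate 4, with a low mitochondrial share, accounted for 11. It was high for Acaa1a (273.2 CPM), Acaa2 (362.8), Acads (421.9), Echs1 (308.9), Eci1 (167.3), Hadh (854.4) and Etfb (152.2 CPM, against 25.04 to 35.15 CPM in the rest of the group), and low for Abcd3 (280), Acadvl (159.2), Acsl1 (113.2) and Etfdh (148.8 CPM). Female Q replicate 5, with the lowest mitochondrial share, was low for Crat (93.26 CPM) and high for Hao2 (1242 CPM, against 786.7 to 893.2 CPM).

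Female WT replicate 2 was high for Acads (160.7 CPM, against 139.4 to 142.9 CPM). Acot1 was high in male R replicate 4 (160.8 CPM), as were Etfb (55.24 CPM) and Hadh (763.3 CPM) in male WT replicate 4. Hadh was low in male R replicate 2 (631 CPM), as was Ppara in female WT replicate 3 (22.66 CPM). The part of RNA quality or tissue composition in these values was not tested.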

How the results depend on the processing

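Counts of the 36 genes called by sex stayed within 1.5 times the values given, at 18 to 21 in Q, 13 to 22 in R, 12 to 22 in WT and 23 to 30 on average over all alternatives, and at 0 between genotypes. Calls among all genes, in the same order, numbered 3153 to 5320, 1608 to 5020, 2260 to 4668 and 6477 to 8766. Of 1695 refits of 75 called gene results, 1635 kept their call, 60 lost it and 0 changed sign, with 13 results affected. Beside the losses given with the results, no filter ended Etfdh, Pdk4 and Pex11a in WT, Decr2 and Etfa in Q, Acot4 in R, and Acot4 and Pdk4 on average. Voom ended Decr2 in Q (adjusted p = 0.0534), and leaving out the 3 libraries that stood apart ended Pdk4 in WT and on average (edgeR adjusted p = 0.099 and 0.0841). The averaged Pdk4 call also ended without female WT replicate 2, female Q replicate 1 or female R replicate 2 (edgeR adjusted p = 0.062, 0.0622 and 0.132), and that of Abcd3 without female R replicate 1 (0.0598). The cause was not tested.

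Deviations of libraries with the same number from their group means had correlations of -0.29 to 0.21. The main fit did not pair them, and whether the same number marks a shared batch was not tested. With the replicate block 19 genes were called in Q, 14 in WT, 15 in R and 26 on average, of 3864, 2785, 2110 and 6732 among all genes, and Abcd3 in Q and Etfdh in WT were lost (edgeR adjusted p = 0.0568 and 0.0597).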
